A study of Homo sapiens with 6 samples.

Results

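The genes described here encode proteins that decide how long an mRNA survives: ZFP36 (tristetraprolin) and its relatives ZFP36L1 and ZFP36L2, the Roquin gene RC3H1, the Regnase-1 gene ZC3H12A, and the AU-rich element binding proteins ELAVL1 (HuR) and HNRNPD (AUF1). They were chosen by name, as every probe set that the array's annotation assigns to exactly 1 gene symbol among these 7. That gave 25 of 54613 probe sets and covered 6 of the 7 genes. The only probe set listed for ZC3H12A is also assigned to a second gene, so no value is given for it.

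The samples were THP1 cells, a line established from a monocytic form of acute myeloid leukaemia, profiled on 6 Human Genome U133 Plus 2.0 arrays, 1 per sample. The samples fell into 3 untreated ones (vehicle, in the wording of the treatment protocol) and 3 grown on Dll4-Fc, a fusion of the Notch ligand Delta-like 4 to the Fc part of an antibody; all were harvested after 48 hours. The coating is given as 30 nM in the protocol and as 60 nM in the sample labels. No Fc-only coating is named, all samples are of 1 cell line, and separate cultures are not stated, so the p-values may measure technical spread alone.

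Many short-lived mRNAs of cytokines, growth regulators and early response genes carry AU-rich elements, and some carry stem-loops, in their 3′ untranslated regions. ZFP36 family proteins bind AU-rich elements with paired CCCH zinc fingers and recruit the CCR4-NOT deadenylase, which shortens the poly(A) tail before decapping and degradation. Roquin and Regnase-1 recognise stem-loops, Regnase-1 as an endonuclease, whereas ELAVL1 mostly stabilises the transcripts it binds and HNRNPD can act in either direction. In monocytes and macrophages this machinery is known for limiting the output of inflammatory mRNAs such as that of tumour necrosis factor.

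ZFP36L1 was the member whose signal rose, and it is the one whose promoters are shown. The RefSeq promoter table held 6 windows for 5 of the 7 members, each reaching from 250 bases before a transcription start to 50 bases after it. ELAVL1 and ZFP36L2 had no entry. ZFP36L1 has a pair of windows on chromosome 14 (RefSeq, GRCh38.p14, minus strand, 5′ to 3′), at chr14:68796194-68796493 and chr14:68793367-68793666, in which capitals mark motif matches:
ZFP36L1 window 1: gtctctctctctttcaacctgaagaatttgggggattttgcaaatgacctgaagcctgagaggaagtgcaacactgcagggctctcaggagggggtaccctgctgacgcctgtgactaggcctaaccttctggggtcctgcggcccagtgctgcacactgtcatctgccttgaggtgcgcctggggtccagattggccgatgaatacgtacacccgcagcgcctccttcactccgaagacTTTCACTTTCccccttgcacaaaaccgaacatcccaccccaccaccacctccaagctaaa
ZFP36L1 window 2: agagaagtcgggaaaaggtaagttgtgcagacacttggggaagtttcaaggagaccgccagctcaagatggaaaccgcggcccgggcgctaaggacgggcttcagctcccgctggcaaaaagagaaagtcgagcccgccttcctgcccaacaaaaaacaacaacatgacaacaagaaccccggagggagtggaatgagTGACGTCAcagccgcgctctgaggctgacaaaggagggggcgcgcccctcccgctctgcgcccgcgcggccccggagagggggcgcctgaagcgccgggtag

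Searched on both strands were the core of the interferon-stimulated response element (GAAA, NN and GAAA in a row), the cyclic AMP response element (TGACGTCA), the AP-1 element (TGACTCA) and the core bound by the Notch effector RBPJ (TGGGAA). No match overlapped another. Window 1 held the interferon element core on the minus strand, at window bases 241 to 250, directly before the start; 3.57% of 35116 promoter windows hold it. The HNRNPD window held it too, at bases 158 to 167. Window 2 held the cyclic AMP element at bases 199 to 206, as 1.85% of windows do. The AP-1 element (4.95% of windows) and the RBPJ core (24% of windows) had no match in any of the 6 member windows, which says only that these letters are not there.

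Libraries were alike within groups. Across genes the correlation was 0.997 to 0.999 between 2 arrays of the same group and 0.981 to 0.985 between an untreated and a Dll4-Fc array. For ACTB the log2 gap between its 3′ and 5′ probe sets, a sign of RNA integrity, ran from 0.69 to 0.78 on untreated and from 0.63 to 0.70 on Dll4-Fc arrays. Of the 5 measured monocytic markers 4 lay above the median log2 signal of all probe sets, 5.69; FCGR1A lay below it on average, and LYZ, CSF1R and SPI1 were higher with Dll4-Fc. The log2 of the summed linear intensities of the 5 was 12.06 to 12.18 on untreated and 13.87 to 14.09 on Dll4-Fc arrays. Most of that sum is LYZ, with a mean log2 signal of 11.87 untreated and 13.87 with Dll4-Fc, while CD4 and FCGR1A did not pass. Whether this shift plays a part in the results below was not tested. Of 14 measured markers of T, B, erythroid, epithelial and fibroblast cells 3 lay above that median (CD79A, HBB and COL1A1) and 0 passed the test in either direction.

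On Dll4-Fc, ZFP36L1 signal rose on 2 of its 4 probe sets, ELAVL1 signal fell on 2 of 4 and HNRNPD signal fell on 1 of 9, while no probe set of ZFP36, ZFP36L2 or RC3H1 passed. In all, 2 of the 25 probe sets were higher and 3 lower at an adjusted p under 0.05 (limma, Benjamini-Hochberg over all probe sets). Among all probe sets 16.5% passed, 7.21% higher and 9.26% lower, so the 5 of 25 are close to the background. The median difference of the 25 was -0.07 on the log2 scale, against -0.02 over all probe sets. Differences are Dll4-Fc minus untreated, ± is their standard error with n = 3 arrays per group, and in these bulk samples fewer cells with a transcript and less of it per cell cannot be told apart.

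**Figure D1:**
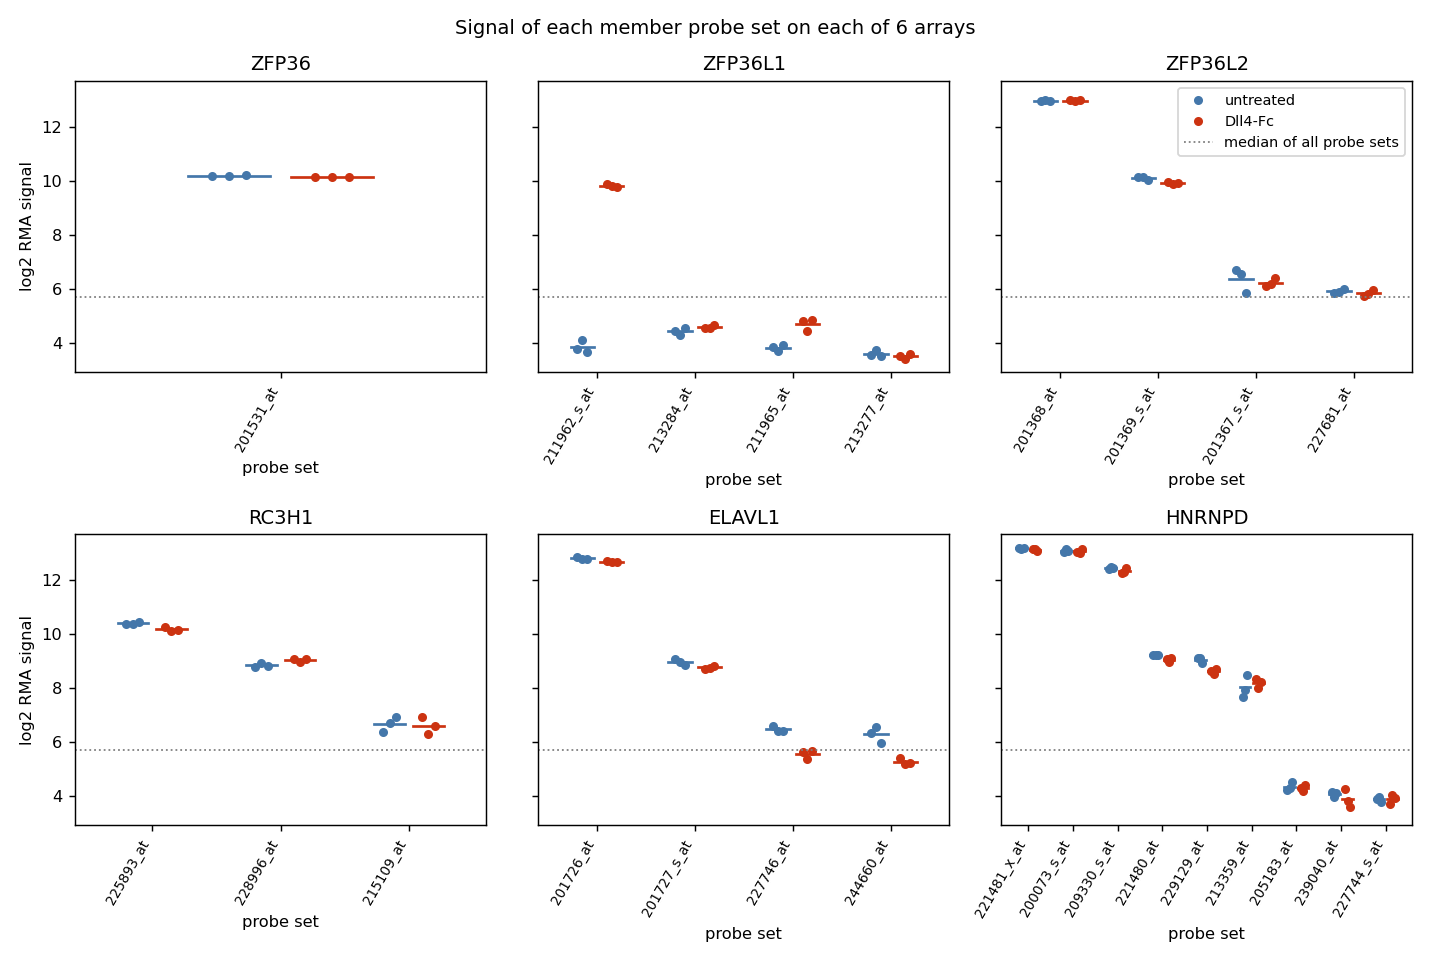
Log2 signal (vertical axis) of each of the 25 probe sets (horizontal axis, 1 panel per gene) on the 3 untreated (blue) and 3 Dll4-Fc (red) arrays; points are arrays, short lines are group means and the dotted line is the median of all probe sets, 5.69. ZFP36L1 probe set 211962_s_at moves from 3.66 to 4.09 up to 9.75 to 9.87, and the levels of different probe sets are not comparable with each other.

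ZFP36, the founding member of its family, is measured by 1 probe set, 201531_at. Its log2 signal was 10.17, 10.18 and 10.22 on the untreated arrays and 10.14, 10.15 and 10.14 on the Dll4-Fc arrays. All 3 Dll4-Fc values lay just under the untreated ones, yet the difference was -0.05 ± 0.06 with a 95% confidence interval of -0.18 to 0.09 (limma adjusted p = 0.707).

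ZFP36L1, a family member known for its part in lymphocyte development, gave 4 probe sets that did not move alike. On 211962_s_at the log2 signal was 3.78, 4.09 and 3.66 on untreated and 9.87, 9.81 and 9.75 on Dll4-Fc arrays. The groups were far apart on every array, with a difference of 5.97 ± 0.11 or 62.7-fold (limma adjusted p = 6.93e-08). On 211965_at the values were 3.82, 3.68 and 3.89 against 4.78, 4.41 and 4.85. This smaller rise, 0.89 ± 0.12 or 1.85-fold (adjusted p = 0.00196, limma), was also without overlap.

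The other ZFP36L1 probe sets did not pass. On 213284_at the values were 4.42, 4.27 and 4.55 against 4.55, 4.56 and 4.66, a difference of 0.18 with an interval of -0.02 to 0.37. On 213277_at they were 3.54, 3.72 and 3.51 against 3.49, 3.40 and 3.56, a difference of -0.11 with an interval of -0.29 to 0.08. All 4 ZFP36L1 probe sets lay below the median of all probe sets in untreated cells, where the signal processing shrinks differences, so the size of the folds is uncertain. The largest rise comes from the only one of the 4 whose name marks probes shared between transcripts (suffix _s_at). Without such probe sets the gene is represented by 213284_at and gives 0.18 ± 0.09 (limma adjusted p = 0.269); the differences between its probe sets were not tested.

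ZFP36L2, the third family member measured, showed 0 of 4 probe sets past the threshold. Its 201368_at read 12.97, 12.99 and 12.95 on untreated and 12.98, 12.95 and 12.99 on Dll4-Fc arrays, which overlap, with a difference of 0.00 ± 0.06 (interval -0.14 to 0.14). On 201369_s_at the values 10.15, 10.15 and 10.04 stood against 9.96, 9.90 and 9.90, without overlap. That difference of -0.19 ± 0.07 had a limma adjusted p of 0.0875, and it passed as lower with a trended robust prior (0.0139), with array weights (0.0334) and without dim probe sets (0.0308). The remaining 201367_s_at and 227681_at gave -0.13 ± 0.20 and -0.07 ± 0.08, and their groups overlapped. Without untreated replicate 3, the lowest untreated array on 201367_s_at, that probe set gave -0.39 and passed (adjusted p = 0.0449, limma).

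RC3H1, which encodes Roquin-1, was measured by 3 probe sets that differed in sign. The values of 225893_at were 10.38, 10.37 and 10.44 on untreated and 10.27, 10.13 and 10.16 on Dll4-Fc arrays, all lower with the ligand, by -0.21 ± 0.07 (limma adjusted p = 0.0775). Those of 228996_at were 8.76, 8.94 and 8.81 against 9.08, 8.97 and 9.07, all higher, by 0.20 ± 0.07 (0.11). Neither passed; with a trended robust prior the former was lower (0.00846) and the latter higher (0.0483), and likewise without dim probe sets (0.0292 and 0.0496). With cyclic loess 228996_at was higher as well (0.27, adjusted p = 0.034 in limma). The 215109_at values overlapped, with a difference of -0.06 ± 0.18.

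ELAVL1, the gene of the stabilising protein HuR, was lower on all 3 Dll4-Fc arrays than on any untreated array for each of its 4 probe sets. Among all probe sets, 19% were lower without overlap. On 227746_at the log2 signal was 6.60, 6.39 and 6.42 on untreated and 5.63, 5.39 and 5.65 on Dll4-Fc arrays. It fell by 0.92 on the log2 scale (standard error 0.10, 1.89-fold, limma adjusted p = 0.000479). On 244660_at the values 6.35, 6.57 and 5.96 stood against 5.40, 5.17 and 5.23, a fall of 2.04-fold (-1.03 ± 0.15, limma adjusted p = 0.0025). On both of these probe sets all Dll4-Fc values lay below the median of all probe sets and all untreated values above it.

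The other ELAVL1 probe sets had no adjusted p under 0.05. On 201726_at the values were 12.86, 12.79 and 12.80 against 12.71, 12.67 and 12.67, a difference of -0.13 ± 0.06 (interval -0.28 to 0.01, adjusted p = 0.203 in limma). On 201727_s_at they were 9.07, 8.97 and 8.86 against 8.70, 8.76 and 8.83, a difference of -0.20 ± 0.08 (limma adjusted p = 0.129). Neither passed, although 201726_at was lower with a trended robust prior (0.00395) and 201727_s_at with array weights (0.0343); the differences between the ELAVL1 probe sets were not tested. As the mean of its 4 probe sets ELAVL1 fell by 0.57 (adjusted p = 0.000618, limma over genes), whereas represented by 201726_at it did not pass.

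HNRNPD, the gene of AUF1, had 1 of 9 probe sets past the threshold. On 229129_at the log2 signal was 9.11, 9.12 and 8.94 on untreated and 8.63, 8.51 and 8.70 on Dll4-Fc arrays. Every Dll4-Fc value was lower, by 1.36-fold (-0.44 ± 0.08, limma adjusted p = 0.00853). The other 8 differences ran between -0.19 and 0.17 and none passed. The probe sets 221481_x_at, 200073_s_at and 209330_s_at gave -0.06 ± 0.06, -0.02 ± 0.07 and -0.11 ± 0.07. On 221480_at the values 9.24, 9.22 and 9.24 against 9.07, 8.98 and 9.11 did not overlap (-0.18 ± 0.07, limma adjusted p = 0.103), and it passed as lower with a trended robust prior (0.0434) and without dim probe sets (0.0371). The probe sets 205183_at, 239040_at and 227744_s_at lay below the median of all probe sets in both groups.

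Over the 25 probe sets the groups did not overlap for 14, higher with Dll4-Fc for 4 and lower for 10; among all probe sets 33.2% did not overlap, 14.1% higher and 19% lower. The 5 calls (211962_s_at and 211965_at of ZFP36L1, 227746_at and 244660_at of ELAVL1, 229129_at of HNRNPD) passed in the same direction under each of 11 alternatives that kept all probe sets, among them each array left out in turn. The filter on dim probe sets is not counted, since 211962_s_at, 227746_at and 244660_at pass it only through the group in which they are high and 211965_at is removed. Across the 11 the 211962_s_at difference ran from 5.87 to 6.09 and that of 244660_at from -1.19 to -0.89.

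**Figure D2:**
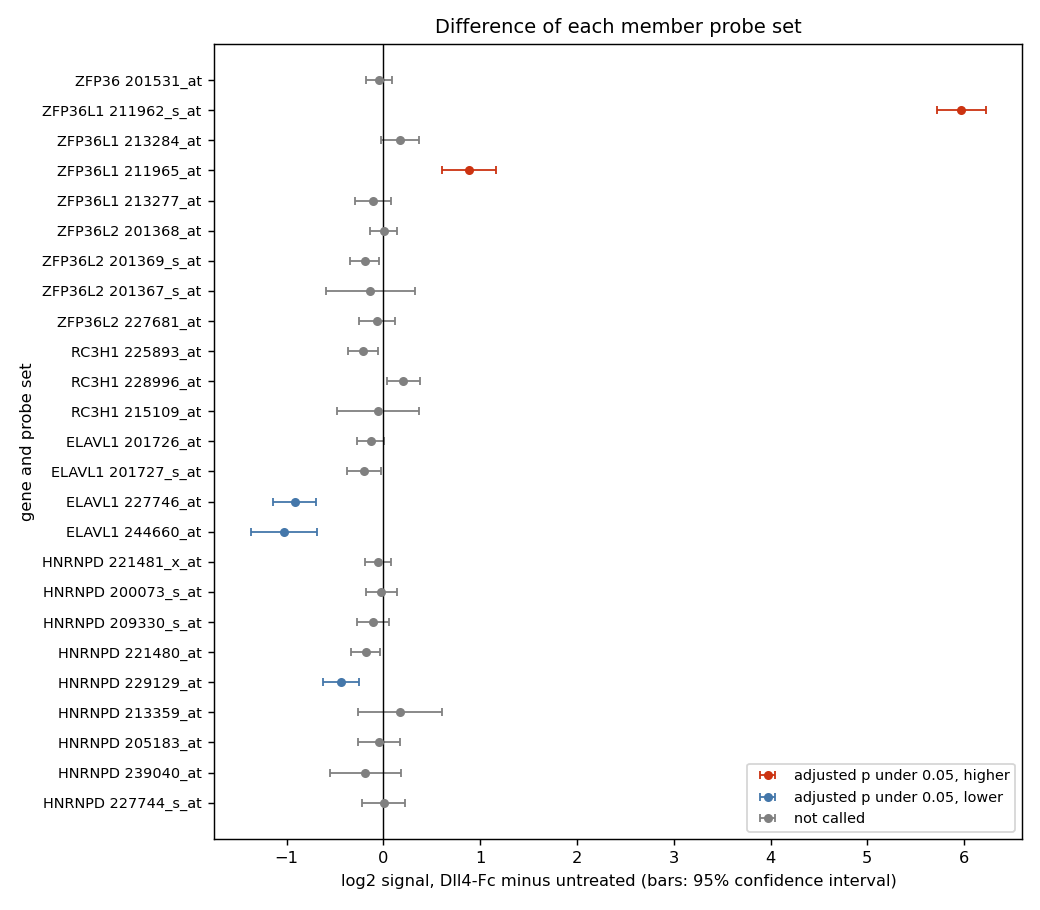
Difference in log2 signal, Dll4-Fc minus untreated (horizontal axis), for each of the 25 probe sets (vertical axis), with bars for the 95% confidence interval of limma and colours for the call. Only 211962_s_at lies far from the rest, at 5.97; the 3 lower calls lie between -1.03 and -0.44.

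The centred log2 profile of ZFP36L1 over the 6 arrays was taken from 211962_s_at alone. Closest to it lay CYBB, a subunit of the phagocyte NADPH oxidase, the interferon-stimulated IFI44 and the protease gene ADAMDEC1. Their root mean square distances were 0.189, 0.190 and 0.214 and their differences 6.03 ± 0.14, 5.83 ± 0.13 and 6.11 ± 0.14. For ZFP36 the nearest were ANAPC7, RPL37A and TRMT5, at distances of 0.011 to 0.013, with differences of -0.06, -0.04 and -0.03. With 2 groups of arrays this likeness reflects mainly the size of the group difference. The probe set 211962_s_at stands for ZFP36L1 because its mean over the 6 arrays is highest, which it owes to the Dll4-Fc arrays. On untreated arrays its mean was 3.84, below the 4.41 of 213284_at. The likeness does not cover the other ZFP36L1 probe sets, whose differences were 0.89, 0.18 and -0.11.

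Relatives and other proteins that bind AU-rich or stem-loop elements had 3 members that rose and 2 that fell among 25 measured, with a median of -0.06; over all 19775 genes, each read from its probe set of highest mean, 22.1% passed, 10.1% higher and 12.1% lower, with a median of -0.01. N4BP1, an RNA-degrading relative of Regnase-1, rose 1.56-fold (0.64 ± 0.09) on 2 of its 4 probe sets, and by 0.23 (limma adjusted p = 0.0457) as their mean. ZC3H12C, another Regnase, rose by 0.38 ± 0.09 and the mRNA-binding IGF2BP3, which lay below the median of all probe sets in both groups on average, by 0.57 ± 0.13. IGF2BP3 gave 0.28 (limma adjusted p = 0.051) when its probe sets were averaged and 0.06 (0.841) without shared ones, and was lost without Dll4-Fc replicate 2 or 3, and only 1 member rose without Dll4-Fc replicate 3; the ZC3H12C call was lost without replicate 2 of the untreated arrays and without replicate 1 or 3 of the Dll4-Fc arrays, and as the mean of its probe sets (0.16, adjusted p = 0.099). The Pumilio gene PUM2 fell by 0.43 (standard error 0.06), although it gave -0.17 (0.521) without shared probe sets, and IGF2BP2 fell by 0.37 (standard error 0.06), or by 0.24 as the mean of its probe sets. A trended robust prior put 6 relatives lower, array weights 5 and the removal of shared probe sets 4 of 21 measured, and 1 rose when the probe sets of a gene were averaged.

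Of the deadenylation genes, through which ZFP36 proteins act, 1 of 19 measured rose and 3 fell (median -0.19). These are 5.26% and 15.8%, beside 10.1% higher and 12.1% lower among all genes. BTG1, an antiproliferative protein that binds the deadenylase, rose 2.09-fold (mean log2 signal 10.87 ± 0.06 untreated and 11.93 ± 0.07 with Dll4-Fc, SD, n = 3), on all 3 of its probe sets. Its one unshared probe set, below the median of all probe sets on every array, rose by 0.44 ± 0.11 (limma adjusted p = 0.0308 without shared probe sets). The catalytic subunit genes CNOT6 and CNOT6L fell by 0.43 and 0.39 (standard errors 0.07 and 0.06), CNOT6L by 0.79 without shared probe sets. The scaffold gene CNOT1 fell by 0.23, a call lost when any 1 array was left out and with the mean of its probe sets (-0.14) or without shared ones (-0.06). The number that fell was 8 with array weights, 8 without dim probe sets, 10 with a trended robust prior and 5 without untreated replicate 3. It was 4 without Dll4-Fc replicate 3, and 2 with cyclic loess, without untreated replicate 1 or 2 and without Dll4-Fc replicate 1 or 2. The 12.1% of all genes is from the main fit and is no background for these counts.

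In the later steps of decay no call reached 2-fold. Of the decapping genes 23.8% passed and of the exosome genes 11.8%, beside 22.1% of all genes. Among 21 decapping and 5′ decay genes PATL1, a decapping activator, rose (0.39 ± 0.07, or 0.22 as the mean of its probe sets) and 4 fell, the decapping enzyme gene DCP2 (-0.21), the scavenger decapping gene DCPS (-0.22), LSM3 (-0.23) and LSM7 (-0.31), of the ring that binds the ends of shortened tails. With an array left out 0 to 3 of them fell (0 without replicate 2 of the Dll4-Fc arrays and 1 without any other array except untreated replicate 3), with cyclic loess 1, with median centring 1 and without shared probe sets 1; 7 fell with a trended robust prior and 7 without dim probe sets. Among 17 exosome genes 0 rose and 2 fell, the nuclease gene DIS3L (-0.43 ± 0.07) and EXOSC10 (-0.31 ± 0.07); EXOSC10 was lost without replicate 2 of the untreated arrays or replicate 1 or 2 of the Dll4-Fc arrays, and stood at -0.15 when its probe sets were averaged and at 0.00 without shared ones. A trended robust prior put 5 exosome genes lower, the removal of dim probe sets 4 and array weights 3. Only 1 was lower without untreated replicate 2, without Dll4-Fc replicate 1 or 2, with averaged probe sets and without shared ones. The 22.1% of all genes is from the main fit and is no background for these counts.

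Genes of the kinases, phosphatases and 14-3-3 proteins that act on the decay factors included 5 that rose and 1 that fell of 19 measured (median 0.10). These are 26.3% and 5.26%, beside 10.1% higher and 12.1% lower among all genes. DUSP1, the phosphatase that switches off the p38 kinases that phosphorylate ZFP36, rose 5.07-fold, from 6.53 ± 0.20 to 8.88 ± 0.23 (SD, n = 3), on 1 of its 3 probe sets, with 0.87 on the log2 scale as their mean. All DUSP1 probe sets have names that mark shared probes, so the gene is absent when shared ones are left out. MALT1, the protease that cleaves Regnase-1 and Roquin, rose by 0.84 ± 0.09 or 1.79-fold on all 3 of its probe sets. The phosphatase subunit gene PPP2CB (0.30 ± 0.06), YWHAZ (0.27) and the kinase gene MAPKAPK2, whose product phosphorylates ZFP36 (0.25), rose and YWHAE (-0.26) fell by small amounts. These smaller calls were not stable: 2 members rose without untreated replicate 2 or Dll4-Fc replicate 2, and 3 rose without untreated replicate 3 or Dll4-Fc replicate 1. The number that fell was 2 without untreated replicate 3 and 0 without any other array. With averaged probe sets 3 rose and 2 fell, and without shared ones 2 of 12 rose and 0 fell; 3 fell with a trended robust prior.

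Transcripts listed for AU-rich elements can be bound by ZFP36 proteins, ELAVL1 and HNRNPD, and which of them bind here was not tested. Of 30 measured, 16 rose (53.3%, beside 10.1% of all genes), 9 of them by 2-fold or more, and 2 fell (6.67%, beside 12.1%). The median difference of the 30 was 0.49, beside -0.01 over all genes, and 5 of the 16 lay below the median signal in untreated cells. The inflammatory cytokine gene IL1B rose 6.47-fold, from 6.42 ± 0.30 to 9.11 ± 0.17 (SD, n = 3), the neutrophil chemokine gene CXCL8 6.3-fold (2.66 ± 0.15) and the kinase phosphatase gene DUSP6 4.1-fold (2.03 ± 0.07). The survival gene BCL2 fell 2.16-fold (-1.11 ± 0.07) on 2 of its 4 probe sets, with -0.53 as their mean, and the growth regulator MYC 1.44-fold (-0.53 ± 0.06). TNF, the best-known ZFP36 substrate, read 5.51 on untreated and 5.85 on Dll4-Fc arrays on average and did not pass (0.34 ± 0.10, limma adjusted p = 0.0652). With shared probe sets left out, 8 of 21 measured were higher (38.1%) and 1 was lower. CXCL8 and MYC have only shared probe sets and are not among the 21. With an array left out 14 to 18 of the 30 rose and 2 fell, and with array weights 19 rose. Among the 16, MCL1 was lost in 5 of the 6 fits with an array left out and CCND1 in 2. The list was drawn from general knowledge with earlier results of these data known, the elements were not searched for here, and decay rates were not measured.

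Transcripts listed for stem-loop decay elements, of the kind that Roquin and Regnase-1 recognise, split. Of 13 measured 4 rose (30.8%, beside 10.1% of all genes) and 3 fell (23.1%, beside 12.1%), with a median of 0.04. NFKBIZ, a nuclear regulator of NF-kB target genes, rose 3.37-fold, from 7.54 ± 0.17 to 9.30 ± 0.18 (SD, n = 3). NFKBIE, an inhibitor of NF-kB, rose by 0.69 ± 0.07, ID1, an inhibitor of differentiation factors, by 0.47 ± 0.09 and TFRC, the transferrin receptor gene, by 0.38 ± 0.06. The phosphatase gene PHLPP1 fell by 0.52 (0.31 as the mean of its probe sets), the cell cycle inhibitor gene CDKN1B by 0.44 and the NF-kB subunit gene REL by 0.43 (standard errors 0.08, 0.10 and 0.08); the CDKN1B call was lost without Dll4-Fc replicate 1 or 2. Without shared probe sets 2 of 11 rose and 3 fell, with a median of -0.06. NFKBIZ and ID1 have only shared probe sets and are not among the 11.

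**Figure D3:**
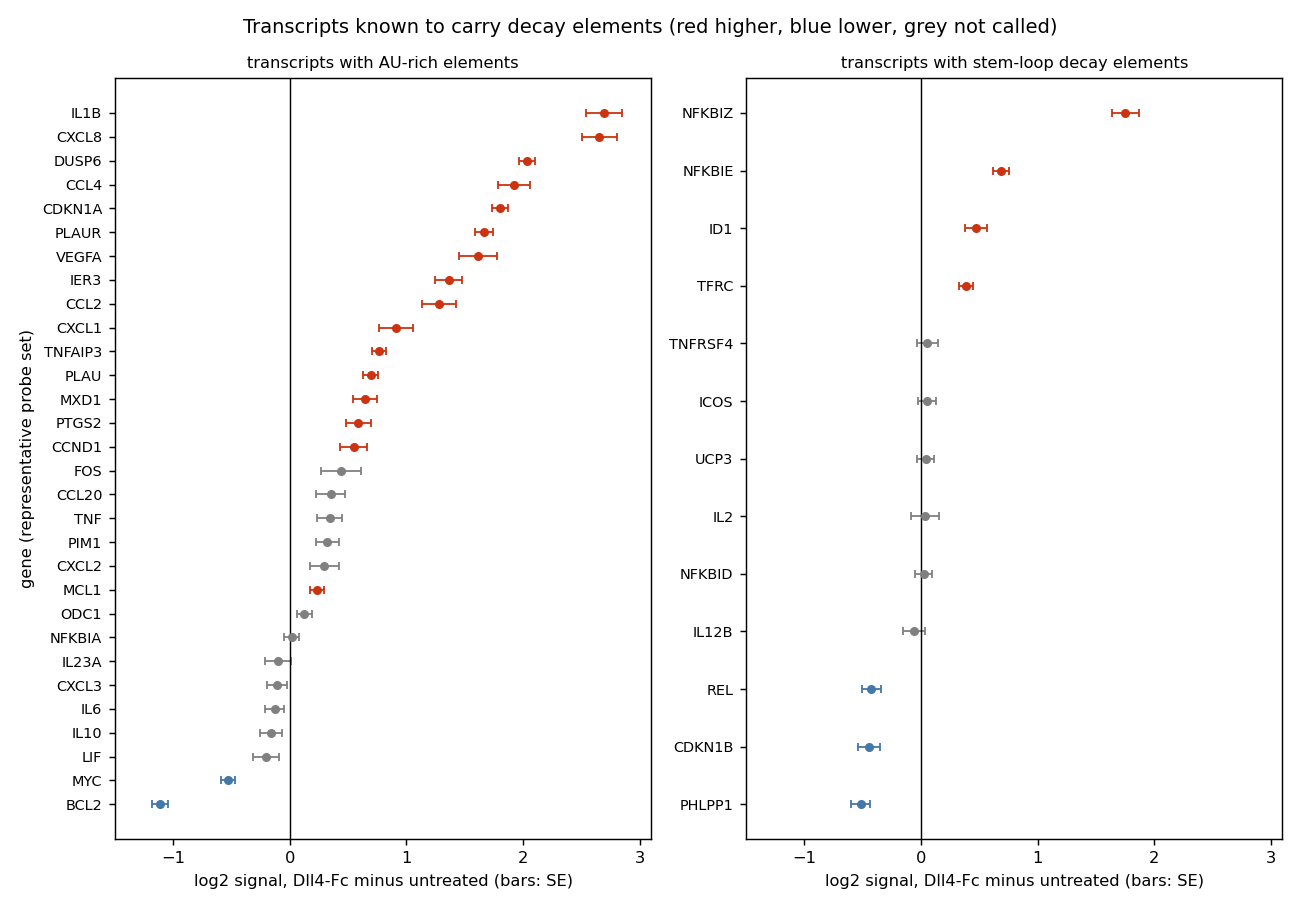
Difference in log2 signal, Dll4-Fc minus untreated (horizontal axis), of the 30 measured transcripts listed for AU-rich elements (left) and the 13 listed for stem-loop elements (right), ordered by size; bars are standard errors of limma and colours give the call. IL1B at 2.69 and CXCL8 at 2.66 lead on the left, and NFKBIZ at 1.75 on the right.

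**Figure D4:**
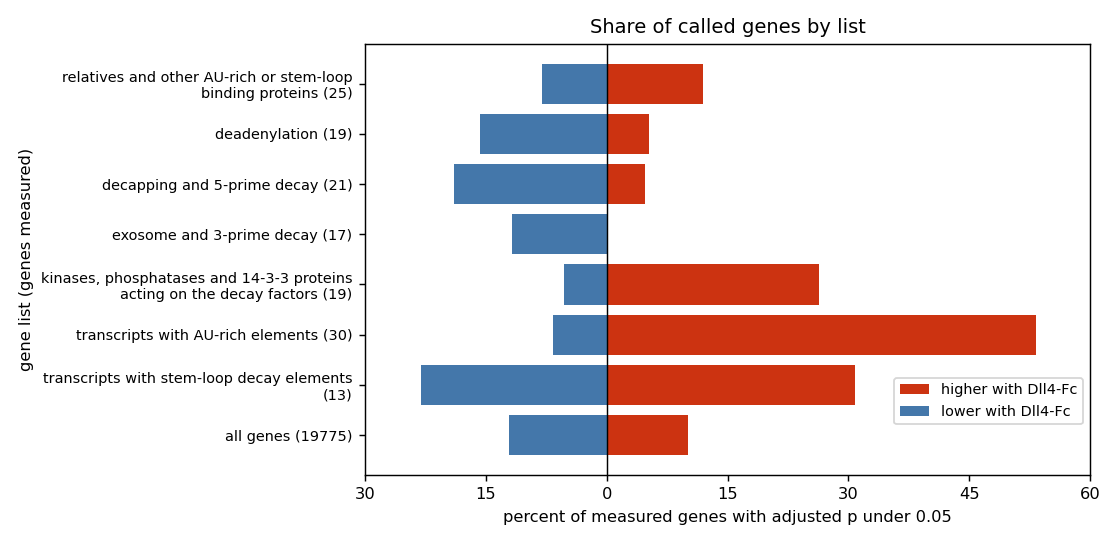
Percent of measured genes that passed as higher (right, red) or lower (left, blue) with Dll4-Fc, for each list of the decay pathway and for all 19775 genes. The AU-rich transcripts reach 53.3% higher, against 10.1% for all genes, while the exosome list has 0 higher.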

How the data were processed

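For every array the authors deposited a linear intensity of each probe set, computed with RMA (background correction, quantile normalization and summary of probes), as named in the submitters' processing notes. Quantile normalization hides a change in total RNA per cell. The number of arrays limits the precision.

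Intensities were log2 transformed, 62 control probe sets were left out and 54613 were fitted in R 4.3.3 by the lmFit and eBayes functions of limma 3.58.1 (2-sided, no covariates); p-values were adjusted by Benjamini-Hochberg over all of them, with 0.05 as the threshold. Of these, 41091 had 1 gene symbol, 1801 several and 11721 were not listed. Lists held 151 entries, 144 measured. Named are all members, up to 3 genes per list and direction among those that passed, and 3 nearest profiles each for ZFP36 and ZFP36L1; DCP2, YWHAZ, MAPKAPK2, TFRC and TNF were chosen after their values were seen. Members and lists were chosen with earlier results of these data known. The fit was tested on simulated data. The labels do not say whether same-numbered samples were paired, and the main fit did not pair them. Alternatives were a replicate block, other priors, weights, normalizations and filters, other gene representatives and each array left out.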

Additional observations from a re-analysis of the deposited data

How the results depend on the processing

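The 5 member calls kept their direction and side of the threshold under the 11 alternatives that kept all probe sets; the filter on dim probe sets says nothing about them, since 3 of the 5 pass it only through the group in which they are high. The number of member probe sets called was 10 with a trended robust prior (7 lower), against 5 (3 lower), and 5 were lower with array weights. Without dim probe sets it was 8 (6 lower). These include the 3 that pass the filter only through the group in which they are high. The share of all probe sets called under these settings is not given here, so the counts have no background beside them. With an array left out the number ranged from 5 to 6, with 2 higher and 3 to 4 lower. Over all probe sets 8996 were called, 3937 higher and 5059 lower; with an array left out the totals ran from 5711 (without Dll4-Fc replicate 1) to 9419 (without untreated replicate 3), the higher from 2784 to 3790 and the lower from 2906 to 5629. Of genes, 4380 were called, 1989 higher and 2391 lower, and 2772 to 4383, 1453 to 1852 and 1319 to 2531 with an array left out.

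Cyclic loess moved the split over all probe sets to 4808 higher and 4068 lower. Of 306 alternative values of single members 291 kept their call, 14 gained one and 1, ZFP36L1 without shared probe sets, lost it. The 306 include the filter on dim probe sets, which says nothing about most of the calls. They also include gene values that could not move, such as the mean for ZFP36, which has 1 probe set. Of 196 alternative list counts 140 stayed within 1.5 times and 56 did not. Shares of all genes printed beside list counts are those of the main fit. With the replicate block the same 5 member probe sets passed and the number of genes called as lower was 1585. It changed 0 member calls, but in the lists 2 in place of 3 relatives rose (ZC3H12C was lost, adjusted p = 0.0666 in limma). CNOT1 was lost (0.116), while another deadenylation gene passed and the number that fell stayed at 3. Further, 0 in place of 4 decapping genes fell, 1 in place of 2 exosome genes fell, and 2 in place of 5 kinase, phosphatase and 14-3-3 genes rose with 0 in place of 1 lower. Deviations of same-numbered arrays correlated at 0.015, -0.209 and -0.152. These values show no sign of pairing, but 3 arrays per group are too few to exclude it. ZFP36L1 lay below the median signal in untreated cells, which limits the precision of its fold.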
